A study of Mus musculus with 32 samples.

Results

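Interferon-stimulated genes are the genes that cells switch on when type I interferon binds its receptor. The genes described here were those of the hallmark interferon alpha response set in the gene set collection used by the authors. Of its 104 genes, 9 were left out because they also belong to the hallmark set of TNF signalling through NF-kB (Ccrl2, Csf1, Cxcl10, Cxcl11, Ifih1, Ifit2, Irf1, Ripk2 and Tap1). Another 7 were left out by name because they belong to the proteasome, to translation initiation or to tRNA charging (Psma3, Psmb8, Psmb9, Psme1, Psme2, Eif2ak2 and Wars). Of the 88 genes left, 86 were in the count table of 17757 genes, and Ifi27l2b and Ifi44l were not in it. The rule works on gene names.

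The cells were 4T1, a mouse mammary carcinoma line of BALB/c origin, grown as spheroids on soft agar for 5 days in a medium that resembles lung interstitial fluid. All cells carried a lentiviral shRNA as polyclonal, puromycin-selected pools. In ASP shSCR the shRNA was a scramble and 700 µM aspartate was added, and in NoASP shSCR the scramble cells received no added aspartate. ASP shGRIN2D and ASP shDHPS received the same aspartate and an shRNA against Grin2d, which encodes an NMDA receptor subunit that aspartate can activate, or against Dhps, which encodes deoxyhypusine synthase, the enzyme that starts the hypusine modification of the translation factor eIF5A. Each condition had 4 spheroid pellets, and the lysate of each pellet was split on a sucrose gradient into a polysomal fraction (mRNA with more than 3 ribosomes) and a sub-polysomal fraction (mRNA with fewer), so that 32 libraries of polyadenylated RNA were sequenced. The comparisons ask whether aspartate, its receptor subunit and the hypusine enzyme alter the amount and the ribosome loading of the mRNAs.

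Type I interferons bind the receptor chains Ifnar1 and Ifnar2 and activate the kinases Jak1 and Tyk2, which phosphorylate STAT factors. With Irf9 these form the complex ISGF3, which binds the interferon-stimulated response element of target promoters. The targets encode proteins that block virus entry, replication and release, sensors of foreign nucleic acid, the ubiquitin-like modifier Isg15 with its enzymes, and the class I antigen presentation machinery. Many tumour cells transcribe part of this programme at a low level without added interferon, and some of its most abundant mRNAs, such as B2m and the class I heavy chains, are made in nearly all cells.

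The libraries held between 12870563 and 25639437 counts (median 18168765). The 86 genes took between 0.255% and 0.6189% of them (median 0.3763%). A mean of at least 50 counts per library was reached by 65 of the 86 genes, 74 had a count in every library, and 9 had a mean under 10. One library stood apart. On an axis that runs from the mean sub-polysomal library at 0 to the mean polysomal library at 1, computed over 11046 genes, ASP shSCR replicate 1 had a polysomal value of 0.3725. The range was 0.7772 to 1.271 in the remaining 15 polysomal libraries and −0.1137 to 0.1623 in the 16 sub-polysomal ones. The counts of called genes and the medians below were therefore also computed without that pellet, and the values are given where they moved.

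The labelled cell type was checked on marker genes. All 6 epithelial markers (Epcam, Krt8, Krt18, Krt19, Cdh1 and Cldn7) were in the table, with a summed level of 1695 to 6768 CPM (counts scaled to library size) per library, and Krt8 was the most abundant. Of the receptors that define the breast cancer classes, Esr1 and Erbb2 were in the table and Pgr was not in it. Erbb2 was at 48.57 to 165.2 CPM and Esr1 at 0.8681 to 7.974 CPM. Of 10 leukocyte markers 4 were in the table, with a summed level of 5.548 to 29.01 CPM. Most of this was Cd68, a lysosomal protein that is abundant in macrophages. The defining markers Ptprc (0 to 21 counts) and Csf1r (0 to 6 counts) were at 0 to 0.8904 and 0 to 0.303 CPM. S100a8 was present in every library, at 8 to 75 counts (0.4526 to 3.18 CPM), and Cd3e, Ncr1, Adgre1, Itgam and Lyz2 were not in the table. Of 3 endothelial markers 1 was in the table, Pecam1, with 0 to 12 counts. Of 4 fibroblast markers 1 was in the table, Pdgfra, at 6.158 to 36.68 CPM. Siglech, a marker of the plasmacytoid dendritic cells that make much interferon, was not in the table.

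The response element lies before the start of some of these genes, and the sequences below show it for the first 6 genes of a fixed panel that hold it upstream of the start site. RefSeq promoters (250 bases before to 50 after the start, assembly GRCm38.p6) were found for 72 of the 86 genes. The core searched was GAAANNGAAA or, on the other strand, TTTCNNTTTC. It was present in a promoter of 24 of the 72 genes (33.3%), compared with 1079 of 27025 genes with a promoter (3.99%). Counted by promoter, 24 of 87 (27.6%) and 1131 of 32851 (3.44%) held it. The palindrome TTCNNNGAA, to which STAT dimers can bind, was present for 10 of the 72 genes (13.9%) and 2582 of all genes (9.55%). Capitals mark the core matches, each sequence reads 5′ to 3′ on the strand of the gene, and overlapping matches are joined.
Isg15: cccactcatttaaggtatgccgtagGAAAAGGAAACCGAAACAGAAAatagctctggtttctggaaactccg
Stat2: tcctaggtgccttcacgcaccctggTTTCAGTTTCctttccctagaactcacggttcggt
Irf2: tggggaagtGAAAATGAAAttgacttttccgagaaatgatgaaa
Bst2: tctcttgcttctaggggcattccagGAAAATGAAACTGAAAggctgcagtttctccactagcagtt
Ifit3: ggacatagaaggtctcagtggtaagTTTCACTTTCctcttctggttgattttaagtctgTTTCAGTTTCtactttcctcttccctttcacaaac
Ifitm2: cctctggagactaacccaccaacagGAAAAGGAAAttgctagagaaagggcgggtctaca
The Isg15 promoter (chr4:156200850-156200921, minus strand) holds 3 overlapping matches, the farthest beginning 78 bases before the start. That of Bst2 (chr8:71537562-71537627, minus strand) holds 2 overlapping matches, and that of Ifit3 (chr19:34583348-34583441, plus strand) holds 2 separate ones. Single matches stand before Stat2 (chr10:128270251-128270310, plus strand), Irf2 (chr8:46739495-46739538, plus strand) and Ifitm2 (chr7:140955973-140956032, minus strand). The core is present before Isg15, Irf2 and Ifitm2, whose mRNAs were higher in the polysomal fraction, and before Stat2, Bst2 and Ifit3, whose mRNAs did not pass the test between the fractions, as described below.

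A few abundant mRNAs carried most of the counts. The most abundant by mean counts was H2-D1, a class I heavy chain, with a mean of 11790 per library. With B2m, the light chain of class I molecules (11760), and the membrane proteins Ifitm2 (8398) and Ifitm3 (8230), which block the fusion of viruses with endosomes, it made up 52.9% of all counts of the 86 genes, and the 10 most abundant made up 68.7%. Per kilobase of transcript, B2m, Ifitm2 and Ifitm3 had the highest levels, and their order differed between conditions. In the sub-polysomal libraries of ASP shSCR they were at 553.7, 503.7 and 633.6 CPM per kilobase, and in those of ASP shGRIN2D at 802.8, 556.2 and 472.1. Averaged over all groups of both fractions, which were scaled separately, the levels were 726.6, 675.9 and 642. The same mean was lower for H2-D1 (301.1) and Cd47, the surface protein that signals to macrophages not to engulf a cell (208.7). The next level was that of the ESCRT subunit Mvb12a (80.16), and those of Ly6e, a membrane-anchored restriction factor of coronaviruses, and of Ifi27 were 44.32 and 39.21. B2m and H2-D1 are encoded at chr2:122147686-122153083 and chr17:35262730-35267499 (GRCm38). 4T1 cells carry BALB/c class I alleles whereas reads were mapped to a C57BL/6 reference, and the H2 and Ifitm genes resemble each other, so the split of reads among them is uncertain. The same holds for Oas1a and Oas1g, for Gbp2 and Gbp3 and for Trim12c and Trim5.

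Other interferon-induced genes, picked here after their values were seen, had levels below these. Isg15 ranked 26 of 85 genes with 13.14 CPM per kilobase, Oasl1 had 3.792, Stat2 1.248, Usp18, the protease that removes Isg15 from its targets, 0.5196, Ifit3 0.3067, Ifi44 0.1697 and Rsad2, the antiviral enzyme viperin, 0.1326. Mean counts per library were 190.6 for Isg15, 17 for Usp18, 10.03 for Ifit3, 9.625 for Ifi44 and 9.375 for Rsad2. None of the 9 interferon genes listed as ligands was in the count table. All 85 ranked genes had a length in the annotation, and Ifi30, a lysosomal thiol reductase, had none.

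The mRNAs of these genes lay mostly toward the polysomal fraction. The ratio of a gene is its polysomal to sub-polysomal level on the log2 scale, where 0 is set by the normalization over all 32 libraries. Averaged over the 4 conditions, the median of the 86 genes was 0.74 (quartiles 0.22 and 1.15), compared with −0.06 for all genes. In edgeR's quasi-likelihood test with adjusted p under 0.05, 55 of the 86 genes were higher in the polysomal fraction and 3 were lower, which is 64.0% and 3.49%. Among all genes 31.5% were higher and 31.1% lower. Part of that background is weakly expressed or non-coding, so the comparison was also made among coding genes with a mean of at least 50 counts. There, 46 of 64 interferon-stimulated genes were higher (71.9%) and 3 lower (4.69%), compared with 47.7% and 34.6% of 10377 coding genes. The ratio was above 0 in all 16 pellets for 30 of the 86 genes, compared with 14.9% of all genes, and below 0 in all 16 for 1 gene, Isg20. Without ASP shSCR replicate 1, 55 genes were higher and 4 lower.

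**Figure D1:**
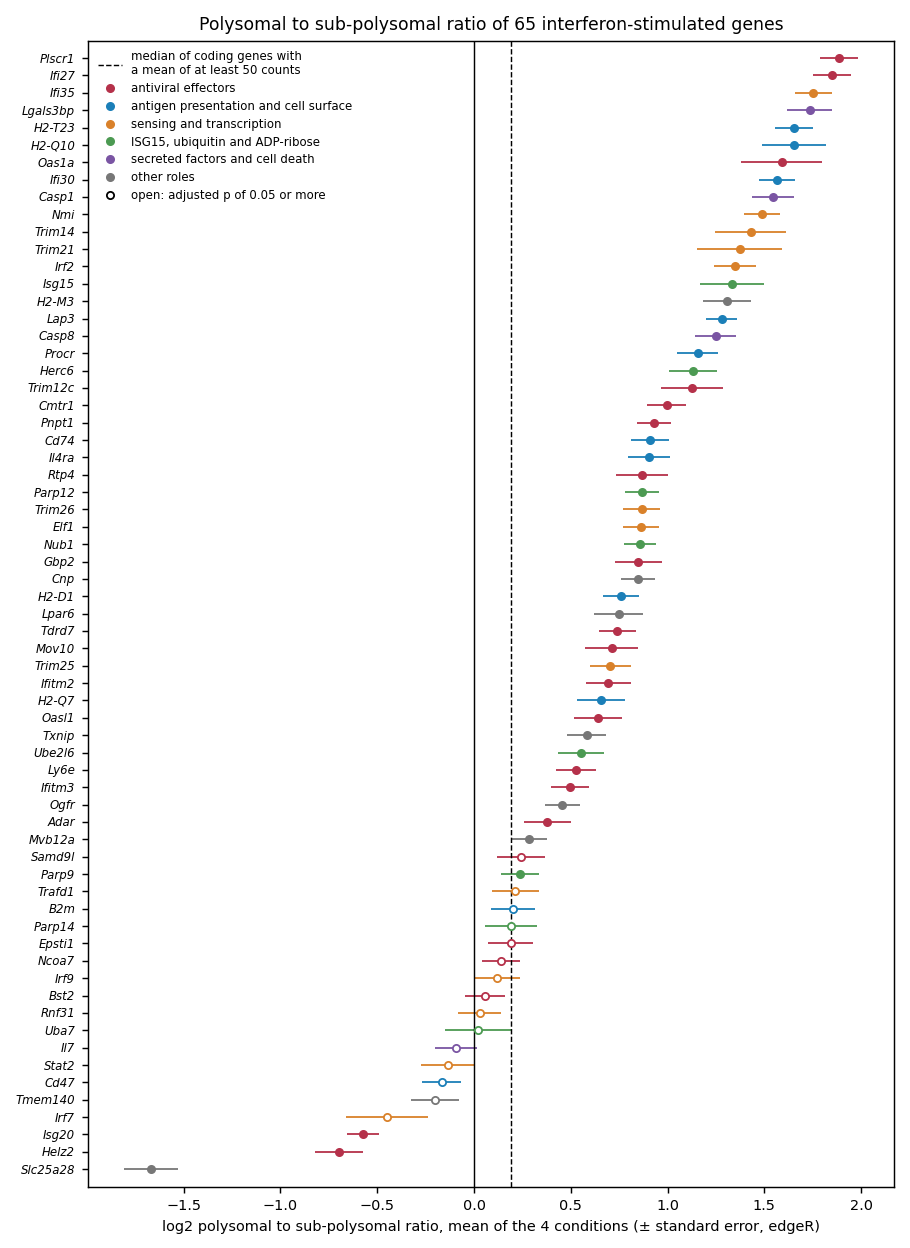
Mean log2 polysomal to sub-polysomal ratio (x axis, with its standard error from edgeR) of the 65 interferon-stimulated genes with a mean of at least 50 counts, coloured by role and ordered by value. Filled points have an adjusted p under 0.05. Most points lie to the right of the dashed line, the median of coding genes at 0.19, and Slc25a28 lies apart at −1.67.

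The shift was present in every pellet. Over genes with a mean of at least 50 counts, the median ratio of the interferon-stimulated genes was 0.67 ± 0.19 (SD, n = 4) in ASP shSCR, 0.80 ± 0.15 in NoASP shSCR, 0.75 ± 0.16 in ASP shGRIN2D and 0.84 ± 0.24 in ASP shDHPS. That of the coding genes was 0.17 ± 0.08, 0.21 ± 0.02, 0.17 ± 0.05 and 0.11 ± 0.04. The interferon-stimulated genes were above the coding genes in 16 of 16 pellets, by 0.38 to 1.10 (median 0.57), while the ranges of the 4 conditions overlapped. The median coding length was 1290 bases for 64 interferon-stimulated genes and 1389 bases for the 10377 coding genes, and Spearman's correlation of ratio and coding length was −0.12 across the former and 0.19 across the latter, given as a description across genes that share the same libraries.

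**Figure D2:**
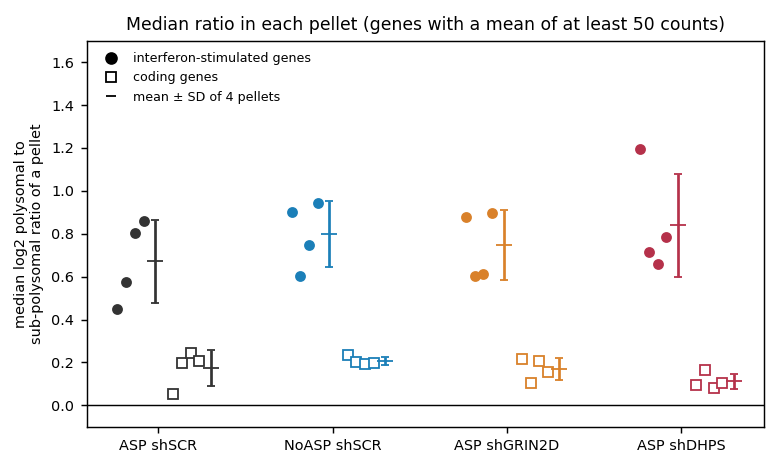
Median log2 polysomal to sub-polysomal ratio in each pellet (y axis) for interferon-stimulated genes (circles) and coding genes (squares), both with a mean of at least 50 counts, by condition (x axis), with the mean ± SD of 4 pellets. The circles lie above the squares in all 16 pellets, and the circles of the 4 conditions overlap.

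The roles include weakly expressed genes, and can be read against the 31.5% of all genes that were higher and the 31.1% that were lower. Among abundant coding genes the shares were 47.7% and 34.6%, and the groups are small. Among the antiviral effectors, 19 of 30 genes were higher in the polysomal fraction and 2 were lower (median 0.70). Plscr1, a phospholipid scramblase that restricts viral entry (chr9:92249750-92272278), had the highest ratio among genes with a mean of at least 50 counts. Its log2 ratio was 1.47, 1.69, 1.81 and 2.20 in the 4 ASP shSCR pellets, 2.11, 1.34, 1.58 and 2.18 in NoASP shSCR, 2.33, 1.65, 1.73 and 2.53 in ASP shGRIN2D and 2.18, 1.55, 1.73 and 2.03 in ASP shDHPS. All 16 pellets were far above 0 and the conditions overlapped (mean 1.88, SE 0.0973, adjusted p = 6.37e-15, edgeR). Ifi27, a small membrane protein, had a mean ratio of 1.85, and Oas1a, which makes the 2′-5′ oligoadenylates that activate RNase L, 1.59. Lower but still past the threshold were Ifitm2 (0.69), Oasl1 (0.64), Ly6e (0.53), Ifitm3 (0.50) and the RNA editing enzyme Adar (0.38). Bst2, which tethers budding virions to the cell surface, did not pass it with a ratio of 0.06 (adjusted p = 0.676), nor did the weakly expressed Ifit3 (0.60, SE 0.4545, adjusted p = 0.266), whereas Rsad2, at similar counts, did (1.19, adjusted p = 0.0343). The mean ratio of Rsad2 was 1.26 in ASP shSCR and 1.15 in NoASP shSCR, where its sub-polysomal counts summed to 4 and 5 over the pellets, and it was −0.12 in ASP shGRIN2D and 0.32 in ASP shDHPS.

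Of the genes on the sub-polysomal side, 2 were antiviral effectors. Isg20, an exonuclease that degrades single-stranded RNA (chr7:78913424-78920396), was lower in the polysomal fraction (−0.57, SE 0.0817, adjusted p = 6.06e-07, edgeR), with pellet values from −1.12 to −0.32. Helz2, a helicase and nuclear coactivator (chr2:181227615-181242027), was lower by a similar size (−0.70, adjusted p = 1.61e-05), with values from −1.46 to 0.21 of which only that of ASP shSCR replicate 1 was above 0. The lowest ratio among the 65 more abundant genes was that of Slc25a28, which encodes the mitochondrial iron importer mitoferrin 2 (chr19:43663801-43674881) and stands among the genes with other roles. It was 0.54, −1.81, −2.43 and −1.80 in ASP shSCR and between −2.30 and −1.39 in the other 12 pellets (mean −1.67, SE 0.1392, adjusted p = 3.78e-11). The single positive value was again that of the pellet whose polysomal library stood apart.

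Antigen presentation and cell surface genes had the highest median of the roles. In this group, 11 of 14 were higher in the polysomal fraction and none was lower (median 1.03). H2-T23, the mouse Qa-1 molecule that natural killer cells recognise (chr17:36029773-36032855), had a ratio of 1.65, as had H2-Q10 (1.65, adjusted p = 1.1e-09, edgeR). The lysosomal reductase Ifi30 was at 1.56, the aminopeptidase Lap3 at 1.28 and H2-M3, which the role lists do not hold and which presents formylated peptides, at 1.31. H2-D1 was at 0.76. Its light chain B2m, although equally abundant by counts, had a ratio of 0.20 that did not pass the test (SE 0.1147, adjusted p = 0.132). B2m was at −0.68, 0.87, 0.17 and −0.60 in ASP shSCR and between −0.43 and 0.83 in the other 12 pellets, so single pellets lay on either side of 0. Cd47 was at −0.17 (adjusted p = 0.154).

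Of 17 genes of sensing and transcription, 9 were higher and none was lower (median 0.70). The shares of higher genes were 31.5% among all genes and 47.7% among abundant coding genes. Ifi35 and its partner Nmi, which bind each other through their shared domains, had ratios of 1.75 and 1.49, the repressor Irf2 1.35, the ubiquitin ligase Trim25 that acts on the RNA sensor Rig-I 0.70 and the helicase Dhx58 1.01. Stat2 and Irf9 had ratios of −0.13 and 0.12 and did not pass the test (adjusted p = 0.424 and 0.393, edgeR). Irf7, the factor that amplifies interferon production, had a ratio of −0.45 (adjusted p = 0.0665). Of the 9 genes around Isg15, ubiquitin and ADP-ribose, 7 were higher and none lower (median 0.86). Isg15 itself was at 1.33 (SE 0.1661, adjusted p = 6.4e-08), with ASP shSCR replicate 1 at −0.55 and the other 15 pellets between 0.52 and 2.37. Its deconjugating enzyme Usp18 had a ratio of 2.12 and its conjugating enzyme Ube2l6 one of 0.55. The activating enzyme Uba7 was at 0.02 (adjusted p = 0.96). Among the ADP-ribosyltransferases, Parp12 and Parp9 were higher (0.87 and 0.24) and Parp14 did not pass the test (0.19).

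In the small group of secreted factors and cell death, none was lower and 3 of 6 were higher. These were Lgals3bp, a secreted galectin-binding glycoprotein (chr11:118392751-118402092; 1.73, adjusted p = 5.94e-13, edgeR), and the proteases Casp1 (1.54) and Casp8 (1.25), which act in pyroptosis and apoptosis. The cytokine mRNAs Il7 (−0.09) and Il15 (0.04) did not pass the test. Of the 9 genes with other roles, 5 were higher, among them the thioredoxin-binding protein Txnip (0.58), and Slc25a28 was lower.

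The silenced genes were examined before the conditions were compared. In the sub-polysomal fraction Dhps was at 38.24 ± 4.057 CPM in ASP shSCR (SD, n = 4) and at 9.504 ± 0.813 CPM in ASP shDHPS, a difference of −2.01 (adjusted p = 1.11e-08, edgeR). Grin2d was at 4.342 ± 1.506 CPM in ASP shSCR and 2.365 ± 0.4173 CPM in ASP shGRIN2D, and its difference of −0.88 (SE 0.295) did not pass the threshold (adjusted p = 0.232). In the polysomal fraction the Grin2d difference was −1.14 (SE 0.331), which did not pass it either (adjusted p = 0.263, edgeR). There, all 4 ASP shGRIN2D libraries lay below all 4 ASP shSCR libraries. In what follows, a difference is the log2 value of the first condition minus that of the second, and ASP shSCR is the shared control of the first 3 comparisons, which are therefore not independent. Levels in the fractions were scaled separately, so a CPM in the polysomal fraction cannot be read against one in the sub-polysomal fraction. In bulk RNA, fewer cells with an mRNA and less of it per cell cannot be told apart.

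The summed level of the 86 genes was 3067 ± 273.6 CPM (SD, n = 4) in sub-polysomal ASP shSCR, 2888 ± 233.7 in NoASP shSCR, 3351 ± 316.6 in ASP shGRIN2D and 2812 ± 196.2 in ASP shDHPS. In the polysomal fraction it was 4560 ± 484.9, 4847 ± 248.5, 5579 ± 357.3 and 5370 ± 411.7 CPM. The lowest polysomal library of ASP shSCR was replicate 1, which stood apart above, at 3931 CPM. No test was made of these sums. Most of the polysomal difference lay in the 4 most abundant genes. Without H2-D1, B2m, Ifitm2 and Ifitm3 the sums were 2317 ± 113.5, 2411 ± 232.1, 2563 ± 355.3 and 2552 ± 256.7 CPM in the polysomal fraction and 1391 ± 82.57, 1356 ± 19.16, 1438 ± 67.54 and 1361 ± 87.09 CPM in the sub-polysomal fraction.

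**Figure D3:**
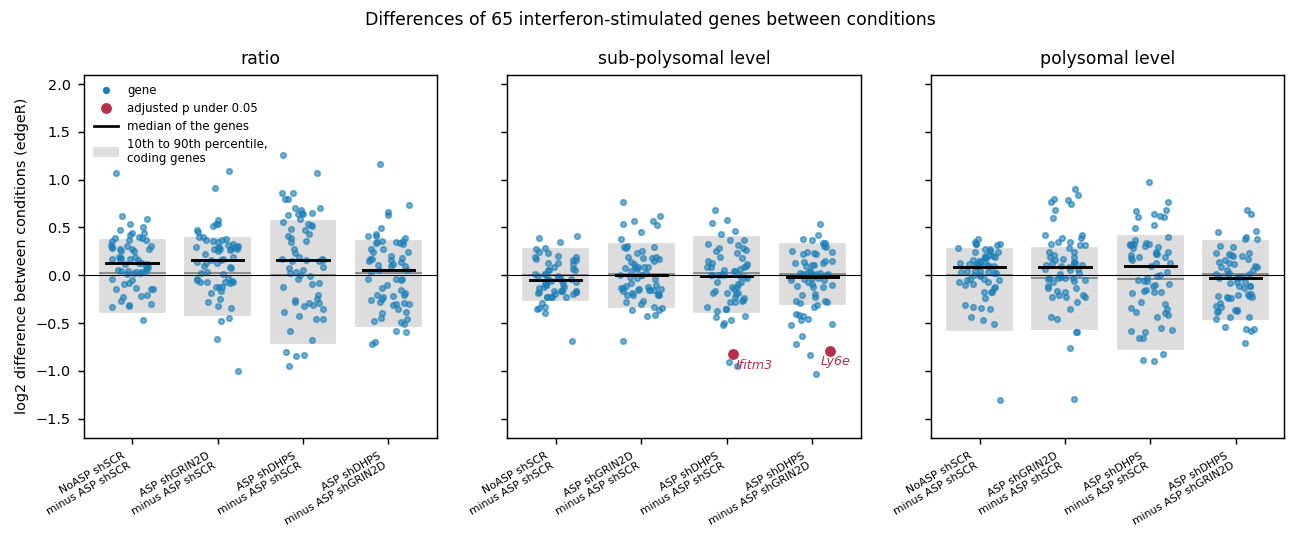
Log2 differences between conditions (y axis, edgeR) of the 65 interferon-stimulated genes with a mean of at least 50 counts, for the ratio and for the level in each fraction. Bars are medians, and grey boxes span the 10th to the 90th percentile of coding genes. Of these genes, Ifitm3 and Ly6e in the sub-polysomal fraction have an adjusted p under 0.05. The weakly expressed Rsad2 is not drawn.

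Without added aspartate, no interferon-stimulated gene passed the test. In NoASP shSCR minus ASP shSCR, 0 of 86 were called in the ratio, the sub-polysomal level or the polysomal level by edgeR, where 0% of all genes were called in each. At an unadjusted p under 0.05, 1 gene was higher and 1 lower in each of the 3 measures, compared with 1.93%, 4.91% and 7.75% of all genes. The conditions did not overlap for 1, 1 and 0 of the 86 genes, against backgrounds of 1.53%, 3.26% and 1.40%. These were weakly expressed genes, named here after their values were seen. They were the helicase Ddx60 (mean 22.22 counts) in the ratio and Ifitm1 (7.156) in the sub-polysomal level. The ratio of Ddx60 was 2.19, 0.51, 1.59 and 0.96 in ASP shSCR and 0.13, −0.19, −0.18 and 0.01 in NoASP shSCR, a difference of −1.49 (SE 0.6803, unadjusted p = 0.0374, adjusted p = 1, edgeR). The median differences were 0.12, −0.05 and 0.04, compared with 0.02, −0.00 and −0.02 over all genes, and the ratio median was 0.06 without ASP shSCR replicate 1. DESeq2's Wald test also called none.

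Among genes with a mean of at least 50 counts, those with the smallest unadjusted p did not pass the adjusted threshold. Uba7 had the largest ratio difference among them (1.07, adjusted p = 1, edgeR), with −0.54, −1.03, −0.40 and −0.87 in ASP shSCR and 0.40, −0.61, 1.76 and −0.01 in NoASP shSCR, so the conditions overlapped. Procr, the endothelial protein C receptor, and Ogfr, the opioid growth factor receptor, had ratio differences of 0.59 and 0.50 (both adjusted p = 1), which were 0.29 and 0.31 without ASP shSCR replicate 2. That of Uba7 was 0.66 without NoASP shSCR replicate 3. In the polysomal fraction, Slc25a28 had the largest difference of the genes named (−1.31, SE 0.449, adjusted p = 0.383). It rested on the library that stood apart, which held 110.2 CPM of Slc25a28 while the other ASP shSCR libraries held 13.28 to 23.93 and those of NoASP shSCR 15.06 to 20.28, and without that pellet the difference was −0.12. Nmi (0.38) and Helz2 (−0.51) did not pass the threshold in this fraction (adjusted p = 0.767 and 0.784), nor did Ogfr (−0.35), Uba7 (−0.69) and Trim25 (0.28) in the sub-polysomal one (all adjusted p = 0.848). The difference of Helz2 was −0.26 without ASP shSCR replicate 1, and that of Uba7 was −0.35 with NoASP shSCR replicate 3 left out and −0.44 with ASP shSCR replicate 2 left out. That of Trim25 ran from 0.18 to 0.40 over 14 alternative fits.

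With the Grin2d shRNA, 1 weakly expressed gene, Rsad2, passed the test. Ly6e, H2-D1 and B2m had higher mean levels in both fractions without passing it, and Ifitm3 had lower ones. In ASP shGRIN2D minus ASP shSCR, edgeR called 1 of 86 genes in the sub-polysomal level (background 0.315%), 0 in the polysomal level (0.0169%) and 0 in the ratio (0%). At an unadjusted p under 0.05 the counts were 5 higher and 4 lower in the sub-polysomal level (background 11.0%), 8 higher and 3 lower in the polysomal level (9.06%) and 3 higher and 0 lower in the ratio (3.22%). The conditions did not overlap for 1 higher and 3 lower genes (5.50%), 4 higher and 2 lower (2.68%) and 3 higher and 0 lower (1.88%). The medians were −0.00, 0.06 and 0.18, compared with 0, −0.04 and 0.01 over all genes. The ratio median was 0.09 without ASP shSCR replicate 1. In the sub-polysomal fraction the epithelial markers summed to 1832 ± 173.9 CPM (SD, n = 4) under ASP shGRIN2D, to 3139 ± 857.3 CPM under ASP shSCR and to 1888 ± 178.9 CPM under ASP shDHPS, and their part in the results was not tested.

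The called gene was Rsad2 (chr12:26442746-26456452). It had 1, 0, 3 and 0 counts in the 4 sub-polysomal libraries of ASP shSCR, 0, 1, 3 and 1 in NoASP shSCR, 20, 21, 16 and 12 in ASP shGRIN2D and 6, 8, 21 and 3 in ASP shDHPS. All 4 ASP shGRIN2D libraries were above all 8 scramble libraries (log2 difference from ASP shSCR 4.10, SE 0.90, adjusted p = 0.0327, edgeR). With 4 counts in all in the ASP shSCR libraries, the fitted size depends on the prior count and is no firm estimate. The call was lost when any of ASP shSCR replicates 1, 2 and 4 or any of the 4 ASP shGRIN2D replicates was left out. In the polysomal fraction the counts were 14, 7, 0 and 6 in ASP shSCR and 15, 27, 19 and 13 in ASP shGRIN2D, and these overlapped.

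Ly6e (chr15:74955051-74959905) had the smallest unadjusted p of the more abundant genes in the polysomal fraction. There it was at 81.46, 100.7, 109.1 and 85.08 CPM in ASP shSCR, 207.4, 143.1, 161.2 and 191.7 in ASP shGRIN2D, and 104.7 ± 11.94 (SD, n = 4) in NoASP shSCR. All ASP shGRIN2D libraries lay above all ASP shSCR libraries, and the difference of 0.90 (SE 0.184) did not pass the threshold (adjusted p = 0.0921, edgeR). In the sub-polysomal fraction it was at 81.13, 51.83, 57.44 and 87.01 CPM in ASP shSCR and 142.4, 84.12, 105.3 and 140.6 in ASP shGRIN2D. Here the groups overlapped by 1 library (difference 0.77, adjusted p = 0.0786), and the difference passed without ASP shGRIN2D replicate 2 (0.90, adjusted p = 0.0272). The ratio difference of Ly6e was 0.19 (SE 0.292, adjusted p = 1).

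H2-D1 and B2m, the paired chains of class I molecules, had the same order in the polysomal fraction. H2-D1 was at 574.4, 673.1, 699.9 and 564.3 CPM in ASP shSCR and at 1320, 867.6, 877.8 and 1201 in ASP shGRIN2D, with no overlap (difference 0.76, adjusted p = 0.244, edgeR). B2m was at 401.9, 710.9, 568.9 and 427.3 CPM in ASP shSCR and at 662.3, 1014, 1073 and 776.1 in ASP shGRIN2D, where 1 library overlapped (0.74, adjusted p = 0.261). In the sub-polysomal fraction B2m was at 476.2 ± 98.28 CPM (SD, n = 4) and 690.4 ± 94.29 CPM (0.54, adjusted p = 0.202). Of the 14 antigen presentation and cell surface genes, 4 were higher and 1 lower at an unadjusted p under 0.05 in the polysomal fraction (median 0.33), where 9.06% of all genes were at that level in either direction, and none of them was past the adjusted threshold. The antiviral effectors had 2 higher and 1 lower of 30, the secreted and cell death genes 2 higher and 0 lower of 6, the genes with other roles 0 higher and 1 lower of 9, and the remaining roles none. In the ratio, Uba7 (1.09), Lgals3bp (0.91) and Nmi (0.58) had the smallest unadjusted p and an adjusted p of 1.

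**Figure D4:**
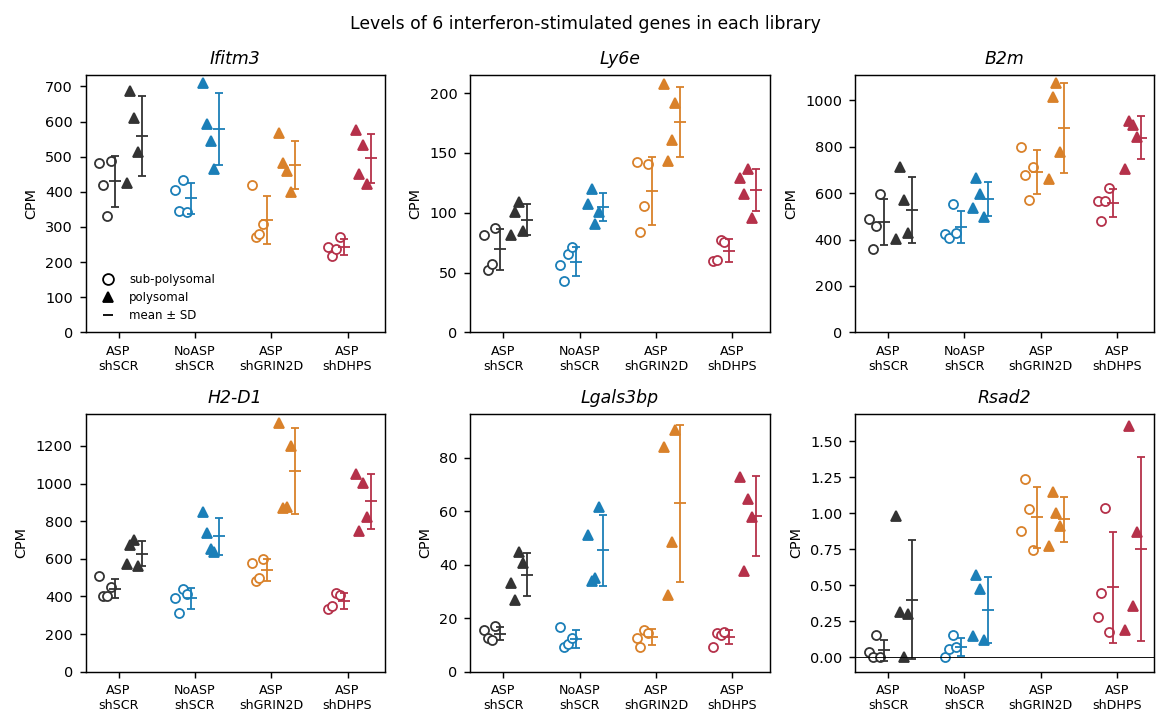
Levels in CPM (y axis) of 6 interferon-stimulated genes in each library by condition (x axis), with the mean ± SD of 4 pellets. Circles are sub-polysomal and triangles polysomal libraries, which were scaled separately. The sub-polysomal circles of Ifitm3 are lowest in ASP shDHPS, at 218 to 271.4 CPM, and the triangles of Ly6e are highest in ASP shGRIN2D, at 143.1 to 207.4 CPM.

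With the Dhps shRNA, the mRNA of Ifitm3 fell in the sub-polysomal fraction, and genes were spread to both sides in all 3 measures. In ASP shDHPS minus ASP shSCR, edgeR called 1 of 86 genes in the sub-polysomal level (background 1.41%), 0 in the polysomal level (0.169%) and 0 in the ratio (0.208%). At an unadjusted p under 0.05, 5 were higher and 10 lower in the sub-polysomal level (background 16%), 10 higher and 7 lower in the polysomal level (16.4%), and 12 higher and 7 lower in the ratio (13.6%). The conditions did not overlap for 2 higher and 4 lower genes (9.39%), 5 higher and 1 lower (6.31%) and 2 higher and 4 lower (6.83%). The medians were −0.05, 0.00 and 0.15, compared with 0.01, −0.05 and −0.01 over all genes, and the ratio median was 0.05 without ASP shSCR replicate 1.

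Ifitm3 (chr7:141009586-141010770) was at 481.5, 418.4, 330.4 and 487.9 CPM in the sub-polysomal libraries of ASP shSCR and at 241.9, 218, 238.3 and 271.4 CPM in those of ASP shDHPS. All ASP shDHPS libraries were below all ASP shSCR libraries (difference −0.83, SE 0.1689, adjusted p = 0.00966, edgeR). NoASP shSCR was at 381.7 ± 44.78 CPM (SD, n = 4) and ASP shGRIN2D, at 320.1 ± 68.99 CPM, lay between (difference from ASP shSCR −0.42, adjusted p = 0.328). The fall was called in 14 of 14 alternative fits, with differences from −0.93 to −0.76. In the polysomal fraction Ifitm3 was at 424.3, 687.7, 609.8 and 512.5 CPM in ASP shSCR and at 574.6, 451.5, 532.5 and 421.1 CPM in ASP shDHPS, which overlapped (−0.17, adjusted p = 0.701). Its ratio difference of 0.71 did not pass the threshold (adjusted p = 0.26). The family member Ifitm2 had a sub-polysomal difference of −0.27 (adjusted p = 0.51). Ifitm1, which lies between them and is weakly expressed, was not called. Its sub-polysomal counts were 13, 14, 6 and 6 in ASP shSCR, 4, 2, 0 and 4 in NoASP shSCR and 4, 3, 1 and 1 in ASP shDHPS. The keratins Krt19 (−1.04, adjusted p = 0.00221), Krt18 (adjusted p = 0.032) and Krt8 (−0.74, adjusted p = 0.049) fell in the same fraction, and their part in the result was not tested.

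In the ratio, the differences with the smallest unadjusted p lay on both sides of 0. Elf1, an ETS transcription factor that drives antiviral genes (chr14:79481194-79582494), was at 1.12, 0.83, 0.86 and 1.58 in ASP shSCR and at 0.28, 0.65, −0.38 and 0.46 in ASP shDHPS, with no overlap (−0.84, SE 0.268, adjusted p = 0.147, edgeR). Mvb12a was at −0.79, 0.68, −0.04 and 0.02 in ASP shSCR and at 0.82, 0.74, 0.91 and 0.59 in ASP shDHPS, where only ASP shSCR replicate 2 reached the other group (0.80, adjusted p = 0.167). H2-D1 was at −0.23, 0.62, 0.66 and 0.22 in ASP shSCR and at 1.51, 1.01, 1.10 and 0.85 in ASP shDHPS, with no overlap (0.80, adjusted p = 0.167). Of the 14 antigen presentation and cell surface genes, 4 had a higher ratio at an unadjusted p under 0.05 and none a lower one (median 0.52), where 13.6% of all genes were at that level in either direction. Of the other roles, the counts were 2 higher and 3 lower of 30 antiviral effectors, 2 and 2 of 17 sensing and transcription genes, 1 and 1 of 9 around Isg15, 1 and 1 of 6 secreted and cell death genes, and 2 and 0 of 9 with other roles.

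In the polysomal fraction of ASP shDHPS, B2m was at 705.5, 909.7, 895.4 and 844.2 CPM, and only 1 library of ASP shSCR reached that range (difference 0.67, adjusted p = 0.136, edgeR). Ogfr was at 87.29 ± 17.73 CPM (SD, n = 4) compared with 57.16 ± 9.848 CPM (0.61, adjusted p = 0.179). Ncoa7, an oxidation resistance protein that blocks virus entry, was at 8.781 ± 1.622 CPM compared with 13.84 ± 2.626 CPM (−0.66, adjusted p = 0.156). H2-D1 had a difference of 0.53. The summed leukocyte markers were at 25.47 ± 3.382 CPM in this group, 18.26 ± 3.201 CPM in polysomal ASP shGRIN2D and 13.7 ± 1.469 CPM in polysomal ASP shSCR. Most of this was Cd68 (23.13 ± 3.79 CPM in ASP shDHPS and 12.06 ± 1.347 CPM in ASP shSCR). Ptprc and Csf1r were at most 0.8904 and 0.303 CPM in any library. S100a8 had 23, 51, 17 and 53 counts in polysomal ASP shDHPS and 15, 33, 27 and 27 in polysomal ASP shSCR. The part of these markers in the polysomal values of the class I genes was not tested.

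The knockdowns were also compared with each other. In ASP shDHPS minus ASP shGRIN2D, edgeR called 1 of 86 genes in the sub-polysomal level (background 0.726%), 0 in the polysomal level (0.0845%) and 0 in the ratio (0.00563%). At an unadjusted p under 0.05, 1 was higher and 12 lower in the sub-polysomal level (background 10.7%), 2 higher and 3 lower in the polysomal level (9.40%) and 0 higher and 3 lower in the ratio (6.41%). The conditions did not overlap for 4 higher and 6 lower genes (6.60%), 3 higher and 2 lower (4.73%) and 2 higher and 1 lower (4.45%). The medians were −0.01, −0.08 and 0.02, compared with 0.00, 0.02 and 0.01 over all genes.

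The called gene was Ly6e, which was lower in ASP shDHPS. Its sub-polysomal level was 59.99, 60.37, 77.4 and 75.8 CPM in ASP shDHPS, and all 4 libraries lay below those of ASP shGRIN2D given above (difference −0.79, SE 0.192, adjusted p = 0.0445, edgeR). It was at 68.39 ± 9.504 CPM (SD, n = 4) in ASP shDHPS, 69.35 ± 17.32 CPM in ASP shSCR and 59.1 ± 12.25 CPM in NoASP shSCR, so ASP shGRIN2D with 118.1 ± 28.37 CPM was the group that stood apart. The call was lost when any of ASP shGRIN2D replicates 1, 3 and 4 or any of the 4 ASP shDHPS replicates was left out. Over all 14 alternative fits, called or not, the difference ran from −0.92 to −0.69. In the polysomal fraction Ly6e was at 119.2 ± 17.74 CPM in ASP shDHPS and 175.8 ± 29.08 CPM in ASP shGRIN2D (−0.56, adjusted p = 0.29). Casp1 (−0.71, adjusted p = 0.33) and Bst2 (0.69, adjusted p = 0.376) did not pass the threshold there, nor did Pnpt1 (−0.70), Elf1 (−0.72) and Nmi (−0.58) in the ratio (adjusted p = 0.534, 0.566 and 0.712).

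The precision of these comparisons was limited by the spread of the pellets. Over the 65 genes with a mean of at least 50 counts, the median standard error was about 0.30 to 0.31 in the ratio differences. It was 0.20 in the sub-polysomal levels and 0.27 in the polysomal levels. The weakly expressed genes are not covered by these values. A p above the threshold does not show that a gene was equal between conditions.

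Other genes of the interferon pathway, listed by role and outside the 86, were examined in the same fits. Of 69 listed genes 53 were in the count table. Averaged over the conditions, 33 of the 53 were higher in the polysomal fraction and 11 lower, with a median ratio of 0.64, where 31.5% of all genes and 47.7% of abundant coding genes were higher and 31.1% and 34.6% lower. Among the 9 receptors and kinases, 2 were higher and 5 lower (median −1.01). The lower ones included the interferon gamma receptor chain Ifngr2 (−1.83) and the kinase Jak2 (−1.72), and the higher ones were the kinase Jak1 (1.24) and the receptor chain Ifnar2 (0.28). Of the 5 STAT and IRF factors, 3 were higher and 1 lower, with Irf5 at −1.75. Of the 6 feedback inhibitors, 3 were higher and 2 lower (median 0.29), from Socs1 at −1.88 to the phosphatase Ptpn6 at 1.72. Of 12 further genes of class I presentation, 10 were higher and 1 lower (median 1.17), including the heavy chain H2-K1 (1.28), the chaperone Calr (1.32) and the peptide loading factor Tapbp (1.22). Of 15 sensors of nucleic acid, 11 were higher and none lower, and of 6 clearance nucleases and related enzymes 4 were higher and 2 lower.

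Between conditions, edgeR called 1 of these 53 genes in the sub-polysomal level of ASP shGRIN2D minus ASP shSCR (background 0.315%), 1 in that of ASP shDHPS minus ASP shSCR (1.41%) and 2 in that of ASP shDHPS minus ASP shGRIN2D (0.726%). None passed the adjusted threshold in the other measures. Ifngr1, the ligand-binding chain of the interferon gamma receptor, fell in ASP shGRIN2D to 18.88 ± 3.097 CPM (SD, n = 4) from 31.76 ± 3.22 CPM in ASP shSCR (−0.75, adjusted p = 0.0158, edgeR) and was at 31.89 ± 1.345 CPM in ASP shDHPS (difference from ASP shGRIN2D 0.75, adjusted p = 0.00789). Tlr3, the endosomal sensor of double-stranded RNA, was lower in ASP shGRIN2D (11.14 ± 2.083 CPM) than in ASP shDHPS (20.4 ± 1.046 CPM; 0.87, adjusted p = 0.0172). Nlrc5, the transactivator of class I genes, rose in ASP shDHPS to 11.77 ± 2.248 CPM from 6.768 ± 0.9437 CPM in ASP shSCR (0.80, adjusted p = 0.034). In ASP shGRIN2D it was at 11.83 ± 2.353 CPM, a difference of 0.81 that did not pass the threshold (adjusted p = 0.0693). H2-K1, whose gene Nlrc5 activates, did not pass the threshold in either comparison. Its differences in ASP shDHPS were −0.05 in the sub-polysomal level (adjusted p = 0.93) and 0.51 in the polysomal level (adjusted p = 0.231), and those in ASP shGRIN2D were 0.26 (adjusted p = 0.574) and 0.76 (adjusted p = 0.244).

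The 65 more abundant genes did not vary as one block. The correlation of each gene's sub-polysomal level with the mean standardized pattern of all, over 16 pellets, ran from −0.40 to 0.76 with a median of 0.25. Outside the 86, the genes whose levels were most like that mean pattern were Nosip (Pearson r = 0.90), Plod1 (0.87) and Plin3 (0.86), which is a description over 16 pellets that share their normalization.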

How the data were processed

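The values used were the deposited counts. To make them, the authors mapped trimmed reads to GRCm39, estimated a count for each gene and rounded it. The submitters' processing notes name Trim Galore 0.6.6, FastQC 0.11.9, STAR 2.6.1, Salmon 1.4.0 and DESeq2 1.34.0. Genes weakly covered in all groups had been removed, and the counts were not normalized. Columns of the authors' own comparisons (differences, p values and gene set scores) were not used. The groups came from the sample labels. The hallmark sets came from the deposited gene set collection.

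Ratios were tested with edgeR 4.0.16 in R 4.3.3 (TMM over 32 libraries, a term per pellet that pairs its fractions, a ratio per condition, two-sided quasi-likelihood test). Levels were tested within a fraction over its 16 libraries. All 17757 genes were tested without a filter on low counts, with Benjamini-Hochberg adjustment over all of them and a threshold of 0.05. Values per pellet used a prior count of 2. Conditions were counted as not overlapping only where all values of one lay above all of the other, and equal values counted as overlap. Pellets of a condition are described as independent. Replicate libraries differed beyond sampling noise (chi-square per degree of freedom of at least 24.91 in 48 pairs). The genes, the lists and the tests were chosen with earlier results of these data known.

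The named genes were a panel of well-known interferon-stimulated genes, the silenced genes, the most abundant gene and the highest and lowest mean ratios. In each comparison they also held up to 6 called genes per direction with a mean of at least 50 counts or, with none called, the 3 with the smallest unadjusted p. Other genes named as examples, such as keratins and single pathway genes, were chosen after their values were seen. A few genes of the marker and pathway lists are not reported here. Gene positions and lengths came from a GRCm38 annotation matched by gene ID, and promoter sequences from RefSeq. Figures were drawn with Python 3.11.15 and matplotlib 3.10.9.

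On simulated counts of 17757 genes, 200 genes with a mean of at least 50 counts were changed 3-fold. The step for the ratio in ASP shDHPS minus ASP shSCR recovered 88% of them with 11 false calls. That for the sub-polysomal level recovered 98% with 12. No differences between pellets were simulated, and the spread was taken from the ratio fit, which removes them. These shares check the steps and do not give the power for real pellets, smaller changes or weakly expressed genes. The alternatives were DESeq2 1.42.0 (size factors, Wald test), a minimum of 10 counts in every library, fits of the compared conditions alone, TMM over all 32 libraries for levels, no pellet term for ratios, the replicate number as a block and each pellet left out in turn.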

Additional observations from a re-analysis of the deposited data

Results flagged for a closer look

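Of 192 groups of 4 values tested, 12 had a value far from the other 3 (Dixon's test at the 95% level). Chance gives about 1 in 20, or 9.6 here.

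Procr was low in replicate 2 of 3 conditions. Its log2 ratio was −0.16 in ASP shSCR replicate 2 (others 0.96 to 1.18), 0.47 in ASP shGRIN2D replicate 2 (others 1.31 to 1.45) and 0.84 in ASP shDHPS replicate 2 (others 1.42 to 1.50). In NoASP shSCR, replicate 2 was at 1.16, between the other values.

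Slc25a28 was at 110.2 CPM in the polysomal library of ASP shSCR replicate 1 (others 13.28 to 23.93), the library that lay nearest to the sub-polysomal ones. It was also high in NoASP shSCR polysomal replicate 2, at 20.28 CPM (others 15.06 to 15.85), and low in ASP shGRIN2D polysomal replicate 1, at 14.76 CPM (others 17.38 to 17.64). NoASP shSCR replicate 3 stood apart in 4 values: the log2 ratio of Mvb12a at −0.35 (others 0.26 to 0.36), sub-polysomal B2m at 554.4 CPM (406.7 to 429.6), sub-polysomal Uba7 at 0.7069 CPM (3.85 to 4.105) and polysomal Helz2 at 5.352 CPM (3.47 to 3.565). Sub-polysomal Nmi was at 14.35 CPM in ASP shGRIN2D replicate 2 (5.581 to 6.043), and sub-polysomal Trim25 at 63.17 CPM in ASP shDHPS replicate 3 (46.63 to 47.36).

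The knockdowns differed in sub-polysomal Ly6e in the main fit, and the call was kept in 7 of 14 alternative fits. Neither knockdown passed the threshold for Ly6e against ASP shSCR in the main fit. Its sub-polysomal difference between ASP shDHPS and ASP shGRIN2D, tested directly, was −0.79 (adjusted p = 0.0445, edgeR), and both are set against the same ASP shSCR libraries.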

How the results depend on the processing

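No named gene changed the sign of its difference under the alternatives run. The medians of differences between conditions lay near 0 and some crossed it, each moving by less than the spread between pellets. In the mean ratio, the sum of genes called in either direction was 52 with a minimum of 10 counts, 59 with DESeq2 size factors, 58 without the pellet term, 62 with the replicate block and 59 with DESeq2's Wald test, compared with 58. The calls between conditions depended on the test. DESeq2's Wald test called 2 genes in the ratio of ASP shDHPS minus ASP shSCR (H2-D1 and Mvb12a), 3 in the sub-polysomal level of ASP shGRIN2D minus ASP shSCR (Rsad2, Ly6e and B2m), 2 in that of ASP shDHPS minus ASP shSCR (Ifitm3 and Rsad2), 2 in that of ASP shDHPS minus ASP shGRIN2D (Ly6e and H2-D1) and 3 in the polysomal level of ASP shGRIN2D minus ASP shSCR (Cmpk2, H2-D1 and Ly6e). With a minimum of 10 counts, 0 were called in the sub-polysomal level of ASP shGRIN2D minus ASP shSCR, because Rsad2 was not tested. Leaving out each pellet gave 0 to 1 calls there (Rsad2 without ASP shSCR replicate 3, and Ly6e but not Rsad2 without ASP shGRIN2D replicate 2), 1 to 2 in ASP shDHPS minus ASP shSCR (2 without ASP shSCR replicate 3), 0 to 1 in ASP shDHPS minus ASP shGRIN2D and 0 to 1 in the polysomal level of ASP shGRIN2D minus ASP shSCR (1, Ly6e, without ASP shSCR replicate 3). Of the counts of called genes, 97 of those with a pellet left out stayed within 1.5 times the reported ones, 13 lost calls and 2 gained them. Under the other settings these numbers were 66, 1 and 10.

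Replicate numbers are not stated to pair pellets of different conditions. In 13 of 24 cases for ratios, pairs with the same number correlated over 0.1. For sub-polysomal and polysomal levels these were 19 and 16 of 24. The median correlations were 0.13, 0.21 and 0.27, compared with −0.03, −0.08 and −0.09 for pairs with different numbers. Not every pair with the same number correlated, and the numbers were used as a block only in an alternative fit. With the replicate number as a block, 2 genes were called in the sub-polysomal level of ASP shGRIN2D minus ASP shSCR (Rsad2 and Ly6e), 2 in that of ASP shDHPS minus ASP shSCR (Ifitm3 and Rsad2), 2 in that of ASP shDHPS minus ASP shGRIN2D (Ly6e and H2-D1), 2 in the polysomal level of ASP shGRIN2D minus ASP shSCR (B2m and Ly6e) and 4 in that of ASP shDHPS minus ASP shSCR (B2m, Oasl1, Ogfr and Procr).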
